A study of Mus musculus with 4 samples.

Results

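The 6 fast and developmental myosin heavy chain genes Myh1, Myh2, Myh3, Myh4, Myh8 and Myh13 were described in TA muscle of old and young mice. They were chosen by symbol from the 20340 gene labels with a value in all 4 samples, as the genes of 1 cluster on mouse chromosome 11, and they were selected because their values in the old and young samples, including values listed at 0, had already been seen. The difference between ages in these 6 genes is therefore given as a description, with no test. Each symbol matched 1 locus, so no loci had to be summed for them.

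The study performed mRNA-seq on the tibialis anterior (TA), which lies along the shin, from wild type C57BL/6 mice to compare atrophied muscle of old age with young muscle. The old group (Old 1 and Old 2) held 2 samples of animals 20 months of age, and the young group (Young 1 and Young 2) held 2 samples of animals 3 months of age, with no treatment, transgene or targeted gene in either. The sex of the mice was chosen at random, and no source says which sample came from which sex or animal, although the study describes its sequencing experiments as independent. The design text speaks of 3 samples per age, while the series holds 4 samples, 2 per age, and all of them were analysed here.

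Myosin heavy chain is the motor protein of the thick filament, and its isoform sets much of the shortening speed of a muscle fiber. The cluster holds the isoforms of adult fast fibers (Myh2 for type IIa, Myh1 for type IIx and Myh4 for type IIb), the embryonic isoform Myh3, the perinatal isoform Myh8, and Myh13, which is best known from the fast fibers of extraocular and laryngeal muscles. The slow isoform of type I fibers, Myh7, lies on another chromosome and served as a reference, and mouse TA is known as a muscle built mainly of type IIx and IIb fibers.

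In mm10, the genes follow each other on the plus strand over 293 kb (chr11:67078300-67371502), in the order Myh3 (chr11:67078300-67102291), Myh2 (chr11:67170969-67198159), Myh1 (chr11:67199833-67226690), Myh4 (chr11:67238029-67260446), Myh8 (chr11:67277124-67308633) and Myh13 (chr11:67327103-67371502). These are the limits of whole loci in the deposited values, exons and introns included. The coding sequences of GENCODE M21 were of nearly one length, from 5811 bases for Myh8 to 5826 bases for Myh2 and Myh1. The last 2480 bases of the Myh2 locus lie opposite the antisense gene 9430073C21Rik, and 15435 bases of the Myh1 locus lie opposite the antisense gene Myhas. Whether reads were counted by strand is not given in the sources used here, so reads of these antisense genes and of Myh2 or Myh1 cannot be told apart.

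Long parts of these coding sequences are identical between members, which bears on every value below, because a read from such a part matches more than 1 gene. Of all 50-base windows of the Myh2 coding sequence, 28.1% occurred unchanged in at least 1 other gene of the cluster, against 27.8% for Myh1, 22.7% for Myh8, 19.5% for Myh4, 8.81% for Myh13 and 4.99% for Myh3. For Myh7 the share was 0.226%. At 100 bases the shares were 10.1% for Myh1, 9.57% for Myh2, 7.0% for Myh8, 3.99% for Myh4, 3.6% for Myh13 and 1.19% for Myh3. The closest pair was Myh1 and Myh2, with 20.5% of the 50-base windows of either gene found in the other. Where counting could split or drop such reads, the values of these genes are uncertain, and how much was lost was not tested.

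**Figure D1:**
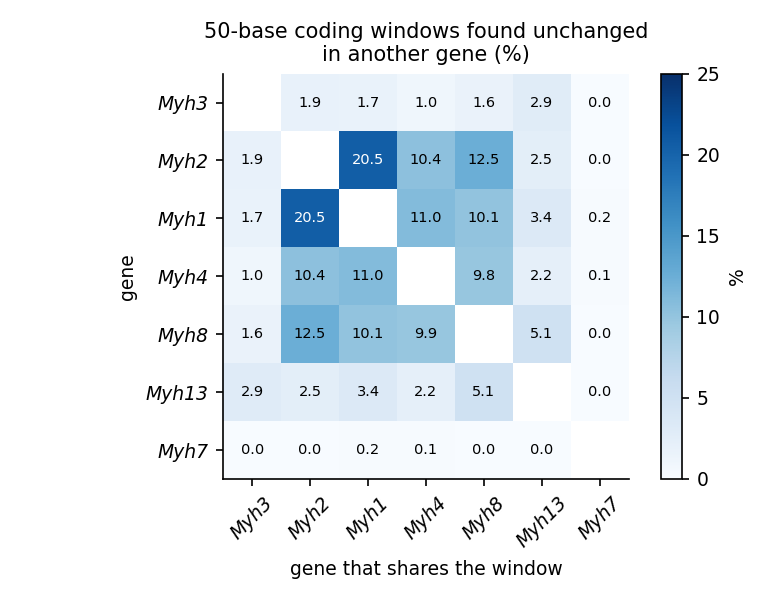
Share of the 50-base windows of each coding sequence (rows, in percent) that occurred unchanged in another gene (columns) on the same strand. The darkest cells are those of Myh1 and Myh2 (20.5%), and the Myh7 row and column are near 0.

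The longest run of identical coding sequence in the cluster is given because it joins Myh1 and Myh2, the members with the highest levels. It spans coding bases 2711 to 2978 of both genes, and lies in 2 neighbouring exons of each (GRCm38, plus strand, chr11:67188318-67188696 in Myh2 and chr11:67213219-67213597 in Myh1, the intron between the exon parts left out of the letters). It is 268 bases long, so a read that lies wholly within it cannot be assigned to either gene by its letters.
Myh2 and Myh1: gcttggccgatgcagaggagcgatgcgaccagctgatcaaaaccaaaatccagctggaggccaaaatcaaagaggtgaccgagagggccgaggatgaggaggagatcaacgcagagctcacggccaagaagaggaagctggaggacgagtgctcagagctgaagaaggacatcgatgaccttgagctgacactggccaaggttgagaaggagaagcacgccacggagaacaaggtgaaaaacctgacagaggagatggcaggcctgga

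The promoters of the members also share letters. All 6 members were found in the RefSeq promoter table (GRCm38.p6, 250 bases before to 50 after each start site). A run of 14 bases occurred in the promoters of Myh2, Myh1, Myh4 and Myh8 and in no other of the 27025 promoters (4 promoters, 0.0148%). A run of 15 bases occurred in those of Myh1, Myh4 and Myh8 alone (3 promoters, 0.0111%). The stretches that hold these runs are shown to let the members be compared letter by letter, with the shared runs in capitals, all on the plus strand.
Myh2 (chr11:67170832-67170935): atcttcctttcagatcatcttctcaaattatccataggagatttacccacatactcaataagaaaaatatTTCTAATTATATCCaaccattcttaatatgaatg
Myh1 (chr11:67199872-67199975): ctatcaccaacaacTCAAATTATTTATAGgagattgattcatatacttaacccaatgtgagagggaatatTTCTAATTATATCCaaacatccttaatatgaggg
Myh4 (chr11:67237584-67237687): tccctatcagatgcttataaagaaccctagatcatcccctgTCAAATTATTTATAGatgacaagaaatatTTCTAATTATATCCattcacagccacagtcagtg
Myh8 (chr11:67277000-67277103): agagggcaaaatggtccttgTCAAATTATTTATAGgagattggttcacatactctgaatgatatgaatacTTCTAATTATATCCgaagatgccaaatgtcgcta

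The 14-base run begins at position -125 in Myh2, -160 in Myh1, -158 in Myh4 and -54 in Myh8, counted from the start site as 0. The 15-base run overlaps a match to the motif of MEF2, a transcription factor of muscle, which was found in the promoters of Myh1, Myh4 and Myh8 and in 3.26% of all promoters (both strands searched). The letters TATAAA were found on the plus strand at position -29 in Myh3, -32 in Myh1, -31 in Myh4 (with another match further upstream) and 10, past the start site, in Myh2, on the minus strand alone in Myh8, and on either strand in 14.2% of all promoters. The letters CANNTG, the core of sites bound by MyoD and its relatives, were found in Myh3, Myh4, Myh8 and Myh13 and in 72.1% of all promoters, and the SRF motif in Myh4 and Myh13 and in 1.57% of all promoters. These matches are a description of the letters alone. The Myh1 and Myh4 promoters share both runs, and a link between the runs and the levels was not tested.

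Expression is given in FPKM, fragment counts divided by transcript length and library size, as deposited by the authors for each sample. These values are per length, which lets the levels of different genes be set side by side within a sample. Shared reads, listed values of 0 and differences between samples that depend on level limit such comparisons. The ratio of Myh1 to Myh2, for example, was 5.57 in Old 1 and 1.64 in Old 2. The 2 samples of an age differed by a common factor of about 2 and by little else among genes of 10 to 1000 FPKM, and by more below and above that range. Among genes with 100 to 300 FPKM in Old 1, the median ratio of Old 1 to Old 2 was 2.0, with 10th and 90th percentiles of 1.92 and 2.29 (426 genes), and the median ratio of Young 2 to Young 1 was 1.97 (1.87 to 2.24). At 10 to 30 FPKM the log2 ratio had a robust SD of 0.0852 within old and 0.0888 within young muscle, and of 0.41 when Old 1 was set against Young 2. Although described as independent experiments, the samples of an age may on these values stand for 1 library, in which case no difference between ages has a replicate check, and p-values measure only the spread between these samples, which may be technical. With 2 samples against 2, the smallest two-sided p of an exact permutation test is 0.333, so no member could pass such a test alone. For this reason levels are also given after median-ratio scaling, which divides each sample by its median ratio to the geometric mean of the 4 samples (1.46 for Old 1, 0.679 for Old 2, 0.688 for Young 1 and 1.47 for Young 2). Over all loci, 5223 to 9558 of 20605 were listed at 0 in a sample. Read depth is unknown, because FPKM hold no counts.

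Myh2, the type IIa isoform, was the one adult fast isoform with a value above 0 in every sample. It had 236 (Old 1) and 95.4 (Old 2) FPKM in old muscle, and 98.0 (Young 1) and 189 (Young 2) FPKM in young muscle. The ages overlapped, since Old 2 lay just below Young 1 and Old 1 was highest. On the log2(FPKM + 1) scale, the mean was 7.24 ± 0.92 (SD, n = 2) in old and 7.10 ± 0.66 (SD, n = 2) in young muscle, a difference of 0.14. After scaling, Myh2 stood at 162 and 141 in the old samples and at 142 and 129 in the young samples, a ratio of the means of 1.12, and the ages still overlapped. It ranked 346th of 15285 genes above 0 in Old 1, 376th of 11015 in Old 2, 379th of 11120 in Young 1 and 433rd of 15174 in Young 2.

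Myh1, the type IIx isoform, had 1318 FPKM in Old 1 and 156 in Old 2, and it was listed at 0 in Young 1 and Young 2. Both old samples thus lay above both young samples. An exact 0 can be a failed estimate, and genes that every muscle fiber uses were also at 0 in these values, so no fold change is read from the values of Myh1. Its 2 old values differed 8.44-fold, where Myh2 differed 2.48-fold between the same samples. Among the 43 genes with 1000 to 3000 FPKM in Old 1, the median ratio of Old 1 to Old 2 was 2.21 and the 90th percentile 3.64, which the ratio of Myh1 exceeded. The 24 genes from 3000 FPKM on had a median of 5.5 and a 90th percentile of 13.3. Myh1 was the 55th highest gene of Old 1 and the 243rd of Old 2. The difference of the mean log2(FPKM + 1) was 8.83 with a pseudocount of 1 and 12.15 with a pseudocount of 0.1, and neither value measures a change, since the young level is only known as a listed 0.

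Myh4, the type IIb isoform, was listed at 0 in all 4 samples. It shared this with 4517 of the 20340 gene labels (22.2%). Ckm, the creatine kinase of muscle, was likewise listed at 0 in all 4 samples, although the tissue uses it at a high level. The values of Ttn, the giant sarcomere protein titin, were 0 in both old samples and 14.1 and 299 FPKM in Young 1 and Young 2. A listed 0 of Myh4 or Myh1 is therefore not read as absence of the transcript.

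The pattern of Myh1, at 0 in both samples of an age and at 100 FPKM or more in both of the other, was rare. It held in the direction of Myh1 for 2 gene labels, Myh1 itself and the locus of Mir1940 and Snora47 (274, 268, 0 and 0 FPKM). It held in the opposite direction for 3, namely Tnnt3, the fast troponin T (0, 0, 4465 and 7509 FPKM), and a pair of loci without a symbol. In all, 411 gene labels reached 100 FPKM in both samples of an age.

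**Figure D2:**
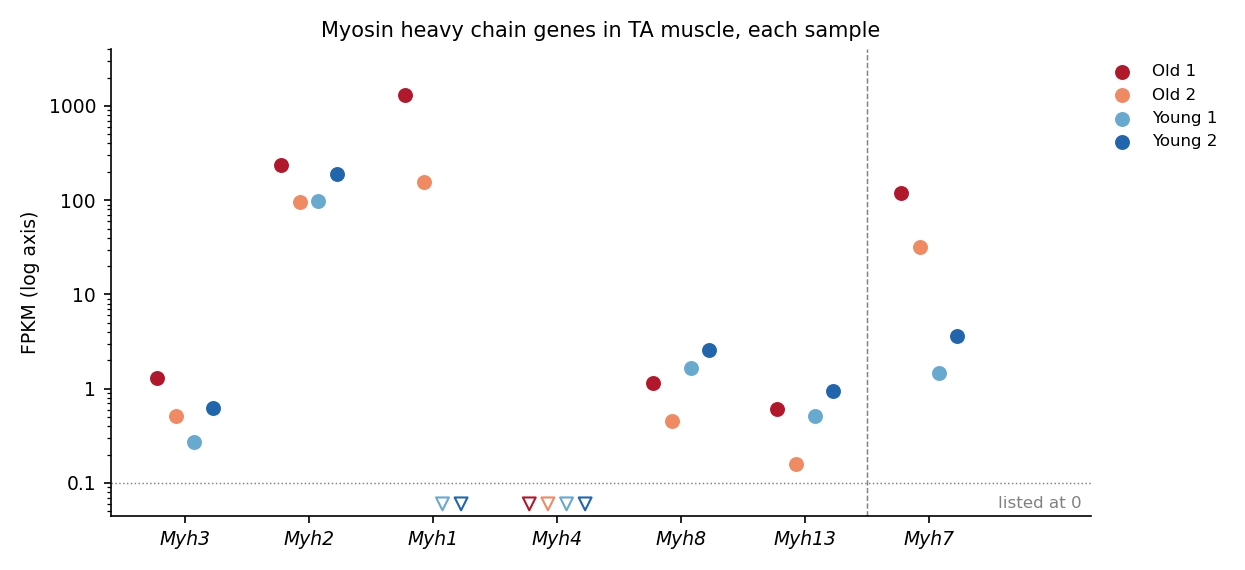
FPKM as deposited (log axis) of the 6 members of the cluster and, right of the dashed line, of Myh7 in each of the 4 samples. Open triangles mark values listed at 0: those of Myh4 throughout and those of Myh1 at 3 months, while Myh2 lies between 95.4 and 236 FPKM in every sample.

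Of the developmental isoforms, Myh3 and Myh8 were present at low levels and differed in opposite directions. Myh3, the embryonic isoform, had 1.29 (Old 1) and 0.516 (Old 2) FPKM in old muscle, and 0.274 (Young 1) and 0.629 (Young 2) FPKM in young muscle. As deposited the ages overlapped, because Young 2 exceeded Old 2. After scaling, the old samples stood at 0.881 and 0.760 and the young samples at 0.399 and 0.428, so that both old values lay above both young values, with a ratio of the means of 1.98. On the log2(FPKM + 1) scale the means were 0.90 ± 0.42 (SD, n = 2) and 0.53 ± 0.25 (SD, n = 2), a difference of 0.37.

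Myh8, the perinatal isoform, had 1.14 FPKM (Old 1) and 0.455 FPKM (Old 2) at 20 months, against 1.64 FPKM (Young 1) and 2.56 FPKM (Young 2) at 3 months. Both old samples lay below both young samples, also in the values as deposited. The mean log2(FPKM + 1) was 0.82 ± 0.39 (SD, n = 2) in old and 1.62 ± 0.30 (SD, n = 2) in young muscle, a difference of -0.80. After scaling the values were 0.781 and 0.671 in the old samples and 2.39 and 1.74 in the young samples, and the young mean was 2.85 times the old mean.

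Myh13, the extraocular isoform, had 0.603 FPKM (Old 1) and 0.160 FPKM (Old 2) at 20 months, against 0.518 FPKM (Young 1) and 0.949 FPKM (Young 2) at 3 months. The ages overlapped as deposited, with Old 1 between the young samples. After scaling, the old samples stood at 0.413 and 0.235 and the young samples at 0.753 and 0.647, so both old values were lower, and the young mean was 2.16 times the old mean. On the log2(FPKM + 1) scale, old minus young was -0.34. At this level the samples of an age agreed poorly over all genes: for those with 0.3 to 1 FPKM in Old 1, the 10th and 90th percentiles of the ratio of Old 1 to Old 2 were 3.31 and 27.0.

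Set against the whole table, non-overlap between ages was scarce as deposited and common after scaling. As deposited, 1 of the 5 members above 0 in any sample had both old values above both young values (Myh1), where 1.2% of all 15823 gene labels above 0 did, and 1 had both below (Myh8), where 1.49% did. After scaling, 2 members were above (Myh1 and Myh3), against 18.8% of all gene labels, and 2 below (Myh8 and Myh13), against 19.5%. These values chose the members, so nothing is read from the counts. The filter of at least 1 FPKM in at least 2 samples was passed by 3 of the 6 members (Myh1, Myh2 and Myh8), while Myh3 reached 1 FPKM in 1 sample (second highest value 0.629), Myh13 in none (highest value 0.949), and Myh4 was at 0. Of the members inside, Myh8 lay closest to the limit, with 3 values above 1 FPKM.

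Between the old samples, Myh3 and Myh8 differed by the same factor as Myh2, and the other members did not. Old 1 exceeded Old 2 by 2.49-fold for Myh3, 2.48-fold for Myh2 and 2.50-fold for Myh8, while Myh13 (3.77-fold) and Myh1 (8.44-fold) stood higher. Between the young samples Myh3, Myh2 and Myh8 did not share a factor: Young 2 exceeded Young 1 by 2.29-fold for Myh3, 1.93-fold for Myh2 and 1.56-fold for Myh8. For Myh13 the factor was 1.83. The ratios of Myh3 and Myh8 in the old samples were below the median of genes of their level, which was 3.45 at 1 to 3 FPKM. That of Myh13 was also below the median of its level, 6.29 at 0.3 to 1 FPKM. In the young samples, the ratios of Myh3 and Myh13 lay below 2.99, the 10th percentile at 0.3 to 1 FPKM in Young 2. That of Myh8 lay below 2.23, the 10th percentile at 1 to 3 FPKM.

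**Figure D3:**
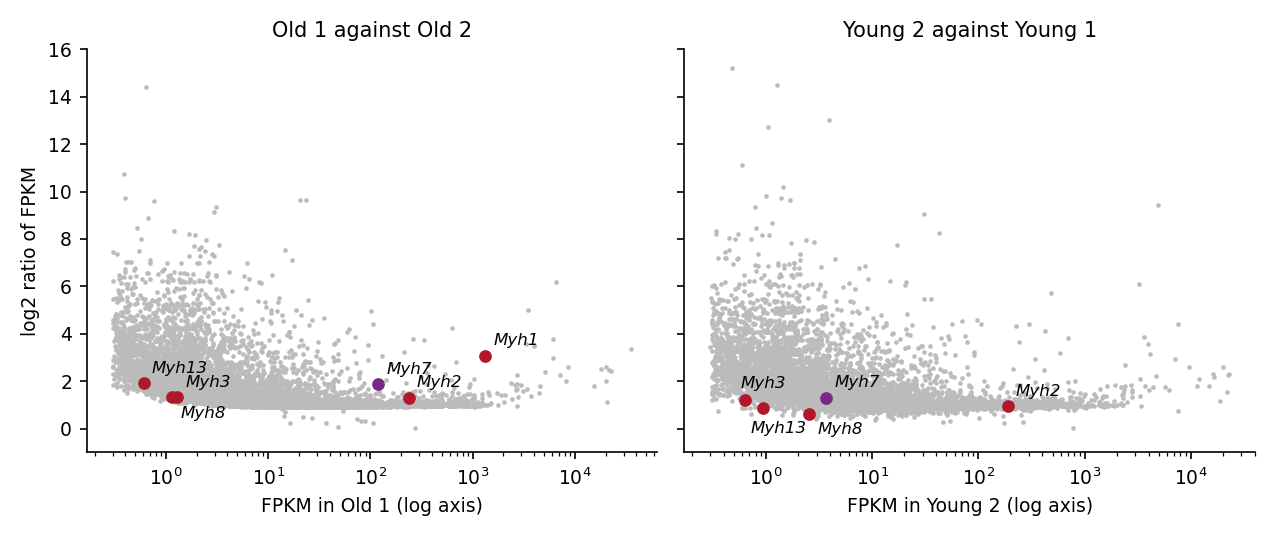
Log2 ratio of FPKM between the samples of an age against the FPKM of the higher sample (log axis), for genes with at least 0.3 FPKM there (grey points), with members of the cluster in red and Myh7 in purple. Most genes from 10 to 1000 FPKM lie near a log2 ratio of 1, and Myh1, at a log2 ratio of 3.08 in the old samples, lies above most genes of its level.

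Each member was also expressed as a percentage of Myh2 in the same sample, which takes out a factor common to all genes. It does not take out the part of the factor that depends on level, since the median ratio of Old 1 to Old 2 rose from 2.0 for genes at the level of Myh2 (100 to 300 FPKM) to 3.45 for those at 1 to 3 FPKM, and to 6.29 for those below (0.3 to 1 FPKM). Myh3 stood at 0.544% and 0.541% of Myh2 in Old 1 and Old 2 and at 0.280% and 0.333% in Young 1 and Young 2. Myh8 stood at 0.483% and 0.478% in the old samples and at 1.68% and 1.36% in the young samples. Myh13 stood at 0.255% and 0.168% in the old samples and at 0.529% and 0.503% in the young samples. The ages did not overlap in any of these 3 ratios, with Myh3 higher in old and Myh8 and Myh13 higher in young muscle. Such non-overlap was common over all genes once a common factor was taken out. After median-ratio scaling, both old values lay above both young values for 18.8% of gene labels above 0, and below for 19.5%. The members were chosen with these values seen, so nothing is read from the 3 ratios as a count. The order of the 2 developmental isoforms differed between the old and young samples. Myh3 was slightly above Myh8 in both old samples, and Myh8 was far above Myh3 in both young samples. All these values were low, and the difference in order was not tested.

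**Figure D4:**
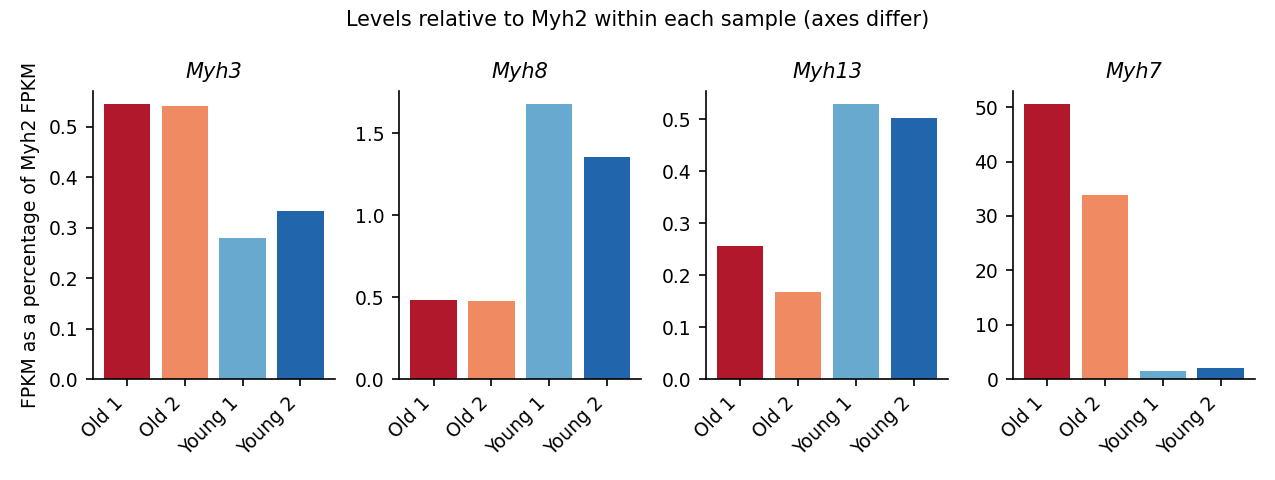
FPKM of Myh3, Myh8, Myh13 and Myh7 as a percentage of the FPKM of Myh2 in the same sample, 1 bar per sample, with a separate axis from 0 for each gene. The old bars are higher for Myh3 and Myh7 and lower for Myh8 and Myh13.

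The slow isoform Myh7 (chr14:54968787-54994549) had 119 FPKM (Old 1) and 32.3 FPKM (Old 2) in old muscle, against 1.48 FPKM (Young 1) and 3.66 FPKM (Young 2) in young muscle. It was 50.5% and 33.8% of Myh2 in the old samples and 1.51% and 1.94% in the young samples. The scaled mean of the old samples was 27.9 times that of the young samples. On the log2(FPKM + 1) scale, old exceeded young muscle by 4.22 (SE 0.94), with an adjusted p of 0.00374 from limma over all 10266 genes tested.

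The levels of the isoforms were then added up in each sample. The 6 members and Myh7 summed to 1676 and 285 FPKM in the old samples (Old 1, Old 2), and to 102 and 197 FPKM in the young samples (Young 1, Young 2). Myh1 held 78.6% of the sum in Old 1 and 54.8% in Old 2, and was at 0 in the young samples. Myh2 held 14.1% and 33.5% in the old samples against 96.2% and 96.0% in the young samples, and Myh7 held 7.13% and 11.3% against 1.45% and 1.86%. The shares of both ages rest on the listed 0 of Myh4, and the young shares also on that of Myh1. Shares were therefore also taken without Myh1, and these still rest on the listed 0 of Myh4 at both ages. Myh2 then held 65.9% and 74.1% in the old samples and Myh7 33.3% and 25.1%, with the young shares as before. The order of levels was Myh1, Myh2, Myh7, Myh3, Myh8 and Myh13 in the old samples, where Myh3 and Myh8 differed by less than the samples of an age did. In the young samples Myh2 stood highest, and Myh8 (1.61% and 1.30% of the sum) lay near Myh7, above it in Young 1 and below it in Young 2. Myh13 and then Myh3 came last.

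**Figure D5:**
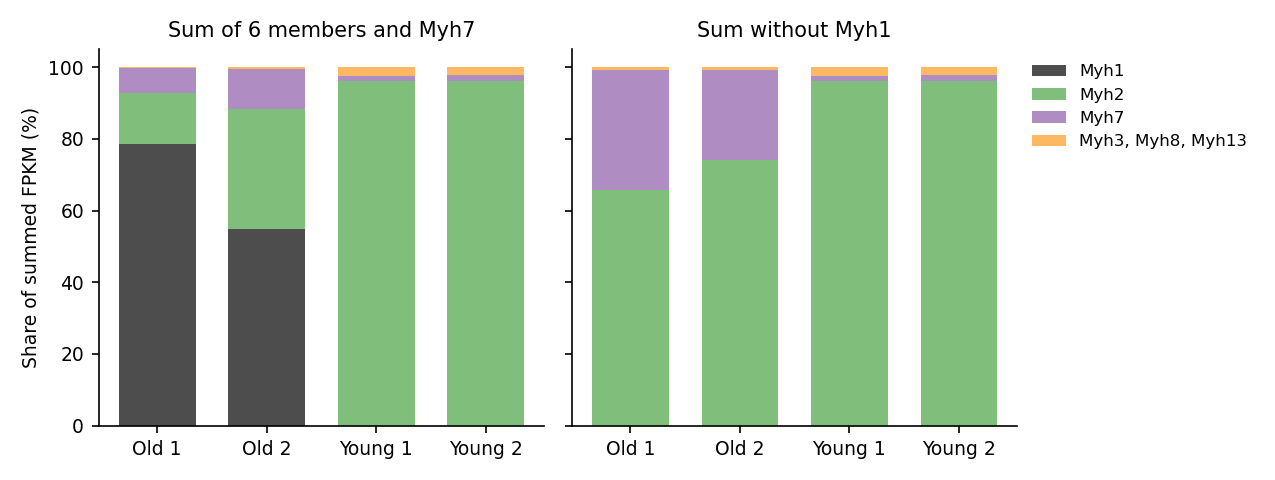
Share of the summed FPKM (percent, bars from 0) held by each myosin heavy chain gene in each sample, with Myh1 in the sum (left) and without it (right). Myh4 was listed at 0 in all samples, and the bar of Myh7 is larger in both old samples either way.

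In bulk muscle, fewer cells of a type and less RNA per cell cannot be told apart, and this holds for each of these values. Of 6 markers of muscle fibers, 5 had a value, and of these Ckm and Ttn were at 0 as given above, while the others were high (Actn3 from 760 to 6170 FPKM, Mb from 1092 to 5739 FPKM). Markers of other cells were far lower in sum: 25.1 to 61.0 FPKM for 3 of 4 endothelial markers, 0.588 to 4.76 for 2 of 3 macrophage markers, 12.1 to 34.7 for 2 of 3 Schwann cell markers and 77.3 to 194 for 4 fibroblast markers. None of 3 adipocyte markers separated the ages as deposited, and their sum of 1.79 to 153 FPKM was set by Cfd, which was at 0 in Old 2 and Young 1. Of the 4 fibroblast markers, Col1a1 and Col3a1 were lower in both old than in both young samples as deposited, and Dcn and Pdgfra overlapped. After scaling, 2 of the 4 were higher (Dcn and Pdgfra) and 2 lower in both old samples. Scaling also left 2 muscle fiber, 2 endothelial and 2 Schwann cell markers lower in both old samples. In the same values 1 adipocyte marker was higher and 0 macrophage markers separated the ages. Over all gene labels above 0, 18.8% were higher and 19.5% lower in this way. The part of these cell types in the values of the cluster was not tested.

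The genes around the cluster were examined as well. Among the 11 nearest gene labels with a symbol, 5 on each side and 1 within, 6 passed the filter and 0 were called by limma at an adjusted p under 0.05. Of all 10266 gene labels tested, 0.175% were called higher and 0.127% lower (35 and 42 gene labels at an unadjusted p under 0.05), so 0 calls among 6 is no result about the neighbours. Inside the cluster, between Myh3 and Myh2, lies the noncoding gene 2310065F04Rik (chr11:67112457-67120080), with 71.1 and 36.7 FPKM in the old samples (Old 1, Old 2), and 50.8 and 100.1 FPKM in the young samples (Young 1, Young 2). Its scaled old mean was 0.724 times the young mean, and its adjusted p from limma was 1.00. On the far side, Dhrs7c, a protein of the sarcoplasmic reticulum, had 230, 117, 166 and 330 FPKM in the same order. Sco1, a copper chaperone of cytochrome oxidase just before Myh3, had 2.66, 1.11, 1.23 and 2.77 FPKM. Neither separated the ages as deposited, and no neighbour showed the pattern of Myh1. After scaling, both old values lay below both young values for Dhrs7c, 2310065F04Rik and the neighbour 2310004I24Rik, and the other neighbours overlapped. The same held for 19.5% of all gene labels above 0.

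For the 3 members that passed the filter, the genes with the most similar pattern over the 4 samples were found by the root mean square difference of centred log2(FPKM + 1) values. Nearest to Myh1 were the locus of Mir1940 and Snora47 (difference 1.14), Snora41 (1.69) and Ostn, the secreted muscle peptide osteocrin (1.84), which had 273, 91.2, 1.44 and 4.75 FPKM in Old 1, Old 2, Young 1 and Young 2. Of these, the small nucleolar RNA loci were at 0 in both young samples, and Ostn was above 0 in all 4. Nearest to Myh8 were Osbpl3 (0.117), Erbb3 (0.121) and a locus without a symbol, and nearest to Myh2 were Iqcg (0.0105), a locus without a symbol and Zfp428 (0.0292). With 4 samples, likeness of this kind is a description of their order and the common factor only.

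The genes that work with these myosins were counted in the limma fit over all 10266 gene labels tested, of which 18 (0.175%) were higher and 13 (0.127%) lower in old muscle, with a median difference of -0.01. The common factor between the samples of an age enters the SE of this fit, so a gene not called is not shown to be unchanged. Of 74 listed genes, 57 were tested, 6 were higher and 3 were lower, with a median of 0.03. Of the 8 other myosin heavy chain genes, 6 were tested and Myh7 alone was called. The nonmuscle and smooth muscle isoforms Myh9, Myh10 and Myh11 had differences from -0.09 to 0.13, and the nonmuscle isoform Myh14 had 0.66. Myh14 overlapped between ages as deposited, and limma called it higher in old muscle on scaled values alone (adjusted p = 0.0398).

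Of 9 genes of slow fibers, 8 were tested and 5 were higher in old muscle, with a median of 3.62. Besides Myh7, these were the slow troponins Tnnt1 (4.39, adjusted p = 0.00148 from limma), Tnni1 (3.59, adjusted p = 0.0416 from limma) and Tnnc1 (3.65, adjusted p = 0.037 from limma), and the slow regulatory light chain Myl2 (3.67, adjusted p = 0.0479 from limma). None of these 5 calls passed when any 1 of the samples was left out (adjusted p from limma between 0.833 and 1.00). On scaled values limma called all 5 (adjusted p from 0.0193 to 0.0235), along with Atp2a2 and Tpm3 (both 0.0227). With that scaling, 576 of all 10266 gene labels were called higher. Of 9 genes of fast fibers, 8 were tested, 0 were higher and 1 was lower, the troponin T gene Tnnt3 with its listed 0 in old muscle, and the median was -0.0018. The fast light chains that bind the chains of the cluster, Myl1 and Mylpf, had differences of -0.04 and -0.09 and overlapped between ages. Myl1 ran from 3168 to 18206 FPKM and Mylpf from 4152 to 22820 FPKM, so both exceeded Myh2 more than 10-fold in every sample.

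Of 12 myosin light chain genes, 9 labels were tested and Myl2 alone was called, with a median of -0.04. Of 14 genes of thick filament assembly and myosin binding, 11 were tested, 0 were higher and Ttn, at 0 in both old samples, was lower, with a median of -0.16. The call of Ttn was lost on scaled values (adjusted p = 0.066 from limma) and without Old 1, Old 2 or Young 2 (adjusted p = 0.0781, 0.246 and 1.00 from limma). Unc45b and Smyd1, which help myosin to fold and assemble, had differences of 0.10 and -0.35 and overlapped between ages as deposited. After scaling, both old values of Unc45b lay above and both of Smyd1 below the young values, and limma called neither (adjusted p = 0.274 and 0.0562). Myosin-binding protein H, encoded by Mybph, had a difference of -0.86, which limma called on scaled values (adjusted p = 0.0361) and not as deposited.

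Of 17 regulators of fiber type, 14 were tested and 1 was higher, Mef2c, with 213 and 96.7 FPKM in the old samples, a listed 0 in Young 1 and 45.9 FPKM in Young 2, and the median was -0.06. The call of Mef2c was lost on scaled values (adjusted p = 0.209 from limma) and without Old 1, Old 2 or Young 1 (adjusted p = 1.00, 0.933 and 1.00 from limma). Eya1, a factor known to drive fast genes, had a difference of 0.03 and overlapped between ages. Of 10 genes of regeneration and satellite cells, which bear on Myh3 and Myh8 because both isoforms are known from regenerating fibers, 5 were tested and 1 was lower, Actc1, the actin of heart and fetal muscle, with 35.8 and 18.3 FPKM in the old and 372 and 2397 FPKM in the young samples (difference -5.15, adjusted p = 2.5e-04 from limma), and the median was -0.02. Without Old 1, Old 2, Young 1 or Young 2, Actc1 was not called (adjusted p = 0.655, 1.00, 0.184 and 1.00 from limma). Pax7, the marker of satellite cells, had 0.962, 0.325, 0.303 and 0.846 FPKM in Old 1, Old 2, Young 1 and Young 2, and overlapped between ages.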

How the data were processed

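mRNA-seq of TA muscle was used in 4 samples, 2 per age, grouped by the sample labels. Per the labels and the methods of the study, reads were trimmed and freed of PCR duplicates by the authors, aligned to mm10 with TopHat2 (2.0.10 per the submitters' processing notes, which also name Cuffdiff 2.1.1), and deposited FPKM per locus from Cufflinks for each sample. The library kit is called stranded in the methods and not in the labels. How reads shared by several genes and reads of the opposite strand were counted, and the read length, are not given in the sources used here. Duplicate removal can lower the values of highly expressed genes.

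The last line of each sample was cut short and was not used. Of 20605 loci with a value in all 4 samples, loci of 1 symbol were summed to 20340 gene labels, and locus starts were written 1-based. Old and young log2(FPKM + 1) values were set against each other in a two-sided limma test (limma 3.58.1, R 4.3.3, eBayes with a trend, Benjamini-Hochberg adjusted p under 0.05) over 10266 gene labels that reached 1 FPKM in 2 samples or more. The fit pooled the spread over genes, and the median SE of a log2 difference was 0.98. It used values as deposited, so the common factor between the samples of an age is part of this SE. A gene that was not called is therefore not shown to be unchanged. The fit called 18 genes higher and 13 lower, against 576 and 815 after median-ratio scaling. Members were described and not tested. Some genes of the lists are counted but not reported singly here. Median-ratio scaling was taken over 7228 gene labels with at least 1 FPKM in all 4 samples and was chosen after seeing the data.

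The genes named are the 6 members, single genes of 7 lists of related genes and of markers, up to 5 loci with a symbol on each side of the cluster, and the 3 most similar genes of each member that passed the filter. The members and lists were chosen with earlier results of these data known, and Tnnt3 and Mir1940 with Snora47 were named after their values were seen. Alternatives were a pseudocount of 0.1, other filters, median scaling, quantile normalization, the highest locus per symbol, limma without the trend, the replicate number as a block, and leaving out each sample in turn. Promoters came from RefSeq and coding sequences from GENCODE M21 (the longest coding transcript of each gene). Tables were handled in Python 3.11.15 with pandas 2.3.3 and numpy 2.4.6, and plots were drawn with matplotlib 3.10.9. Read depth is unknown, so no counting error is given.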

Additional observations from a re-analysis of the deposited data

How the results depend on the processing

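Among the repeats of the counts over all genes and lists and of the differences of single members, 62 stayed on their side and within their range, 41 moved and 2 reversed. The difference of Myh2 (0.14) turned to -0.51 without Old 1 and to -0.33 without Young 1, and ran from -0.51 to 0.79 over the samples left out. With a pseudocount of 0.1, the differences were 0.82 for Myh3, 12.15 for Myh1 (no measured change, with its young values at 0), -1.38 for Myh8 and -0.91 for Myh13, and with scaling and no pseudocount 0.98 for Myh3, -1.5 for Myh8 and -1.16 for Myh13. Over the samples left out, Myh3 (0.37) ran from 0.07 to 0.67, lowest without Old 1, Myh8 (-0.80) from -1.08 to -0.52 and Myh13 (-0.34) from -0.57 to -0.10, nearest 0 without Old 2. The genes called higher and lower in old muscle (18 and 13) were 4 and 2 under a filter of 1 FPKM in every sample, 33 and 31 with median scaling, 576 and 815 with median-ratio scaling, 119 and 188 with quantile normalization, and 2 to 6 and 3 to 10 over the samples left out. Of the related lists, 6 genes higher and 3 lower became 2 and 1 with the filter in all 4 samples, 3 higher without the trend, 7 lower with median-ratio scaling, and 0 to 1 and 1 to 2 over the samples left out. With the replicate number as a block, 2 genes were higher and 3 lower, of which 0 and 1 were in the related lists; samples with the same number deviated in opposite directions (correlation -0.885 over 10266 genes), so the numbers share only a name. With the crossed pairs as a block (Old 1 with Young 2, Old 2 with Young 1), chosen after seeing the data, 2812 genes were higher and 3374 lower, of which 17 and 15 were in the related lists. The cause of these shifts was not tested. Unknown depth leaves the error of low values unknown, which bears most on Myh3, Myh8 and Myh13.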
